A study of Homo sapiens with 14 samples.

Results

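The 10 genes described here are HSF1, the transcription factor that switches on the heat shock response, and 9 chaperone genes it is known to regulate: HSP90AA1, HSP90AB1, HSPA8, HSPA4, HSPH1, DNAJB1, HSPB1, HSPD1 and HSPE1. They are 10 of the 54628 gene symbols in the deposited count files. The members were chosen by name, after the measured values of HSP90AA1 had been seen to differ between ICM-treated cells with and without CTCF knockdown. That contrast is therefore given below as a description with no test. All 10 genes passed the filter on low counts, which 19126 genes passed. The label of the set is cytosolic heat shock chaperones. HSPD1 and HSPE1 encode mitochondrial proteins and HSF1 is not a chaperone, so the label holds for the other 7.

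RNA was sequenced from IMR90 human lung fibroblasts, of which the labels name the isolates I79 and I83. Inflachromene (ICM), a small molecule that binds HMGB proteins, was given at 10 µM for up to 6 days to induce senescence. The 14 libraries comprise WT (no treatment, n = 2), siHMGB2 (HMGB2 knockdown by siRNA in otherwise untreated cells, n = 2), ICM (n = 4), and knockdown of SRRM2, BANF1 or CTCF in ICM-treated cells (siSRRM2, siBANF1 and siCTCF, n = 2 each). ICM 3, ICM 4 and the siCTCF libraries carry labels of another form, with cell line entries from IMR91 to IMR94, and are treated as a second set. ICM 1-2 and ICM 3-4 are therefore kept apart, and no untreated library belongs to the second set, which means that treatment and set cannot be told apart when ICM 3-4 are compared with WT. No label says that replicates came from separate cultures, so p-values measure only the spread between these libraries, which may be technical. The labels do not mention a control siRNA.

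Chaperones bind unfolded or partly folded proteins and help them to fold, to stay soluble or to be degraded. HSP90 proteins act late in folding, on kinases and hormone receptors among others, while HSP70 proteins such as HSPA8 act earlier, driven by J-domain proteins such as DNAJB1 and reset by exchange factors such as HSPH1 and HSPA4. On stress, free HSF1 forms trimers and binds heat shock elements, which are inverted repeats of the unit GAA and its complement TTC. Fibroblasts express most of these genes without stress.

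RefSeq promoter windows (GRCh38.p14, 250 bases before to 50 after an annotated start) were searched for 9 of the 10 genes. HSF1 was left out before the search. Both strands were searched for 2 adjoining units (GAANNTTC or TTCNNGAA) and for 3, in which a further unit follows in the opposite direction after any 2 bases, and a run of 3 always holds overlapping runs of 2. A run of 2 was found in 13.5% of all 35116 windows and a run of 3 in 0.490%. By gene, 16.2% of 27305 genes had a window with a run of 2 and 0.608% one with a run of 3. Among the 9 genes, 6 had a run of 2 and 4 had a run of 3. Since the genes were listed as HSF1 targets, that share describes the list. The 250 bases before the start are shown for the 6 genes with a match, 5′ to 3′ on the gene's strand, with every matched run in capitals. Within the windows searched, these runs divide the genes into those with 3 units, with 2 and with none.

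HSP90AA1, chr14:102087045-102087294, minus strand, an internal start: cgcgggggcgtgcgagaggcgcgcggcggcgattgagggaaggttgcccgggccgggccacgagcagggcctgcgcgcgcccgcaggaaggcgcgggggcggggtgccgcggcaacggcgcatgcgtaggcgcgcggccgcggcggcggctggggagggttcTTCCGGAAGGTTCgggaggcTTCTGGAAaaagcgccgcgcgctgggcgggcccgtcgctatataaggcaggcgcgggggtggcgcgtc
HSP90AB1, chr6:44247693-44247942, plus strand, an internal start: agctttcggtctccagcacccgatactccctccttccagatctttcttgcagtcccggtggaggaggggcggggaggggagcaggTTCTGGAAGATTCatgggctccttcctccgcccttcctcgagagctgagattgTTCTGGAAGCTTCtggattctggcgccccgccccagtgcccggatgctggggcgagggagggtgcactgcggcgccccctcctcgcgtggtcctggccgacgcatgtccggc
HSPA8, chr11:123062137-123062386, minus strand, an internal start: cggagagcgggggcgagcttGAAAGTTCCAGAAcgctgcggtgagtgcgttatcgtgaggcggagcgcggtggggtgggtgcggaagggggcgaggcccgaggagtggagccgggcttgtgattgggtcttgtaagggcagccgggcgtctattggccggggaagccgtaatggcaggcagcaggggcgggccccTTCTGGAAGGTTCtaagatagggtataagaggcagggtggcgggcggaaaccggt
HSPD1, chr2:197499841-197500090, minus strand, an internal start: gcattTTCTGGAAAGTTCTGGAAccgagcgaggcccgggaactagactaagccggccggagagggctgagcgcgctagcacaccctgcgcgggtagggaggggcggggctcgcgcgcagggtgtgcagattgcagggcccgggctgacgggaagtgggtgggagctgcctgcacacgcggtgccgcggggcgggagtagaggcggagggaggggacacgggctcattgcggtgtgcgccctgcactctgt
DNAJB1, chr19:14518398-14518647, minus strand, an internal start: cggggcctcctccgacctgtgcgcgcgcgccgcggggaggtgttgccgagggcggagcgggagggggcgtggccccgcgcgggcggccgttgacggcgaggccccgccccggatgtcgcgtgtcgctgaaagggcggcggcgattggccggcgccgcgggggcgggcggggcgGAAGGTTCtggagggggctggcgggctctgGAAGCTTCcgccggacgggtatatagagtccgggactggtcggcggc
HSPB1, chr7:76302423-76302672, plus strand: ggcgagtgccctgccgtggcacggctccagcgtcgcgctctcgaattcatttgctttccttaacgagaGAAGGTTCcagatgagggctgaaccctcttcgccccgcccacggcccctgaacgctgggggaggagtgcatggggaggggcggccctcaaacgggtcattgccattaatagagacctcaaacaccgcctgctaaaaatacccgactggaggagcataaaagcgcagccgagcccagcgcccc

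An internal start lies inside the gene's full annotated span. HSP90AA1 had 1 run of 3 units, first base 88 bases before the start, and a separate run of 2 at 68 bases. HSP90AB1 had 2 runs of 3, at 165 and 112 bases before the start, and HSPA8 also had 2, at 230 and 55 bases. HSPD1 held 2 overlapping runs of 3, beginning 245 and 240 bases before this start, and its window at the outer annotated start held none. The DNAJB1 window shown held 2 separate runs of 2 units, at 77 and 47 bases. Of its other 2 windows, 1 held a run of 2 beginning 1 base after the start, outside the bases shown, and 1 held none. HSPB1 held 1, at 182 bases. No match was found in these windows for HSPA4, HSPH1 or HSPE1, which says only that these letters are not in these windows. The HSPD1 runs also lie before the HSPE1 start, but outside the HSPE1 window, which begins at base 197500129 of chromosome 2.

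Library sizes ranged from 22336161 to 58257456 gene counts, and 12.8% to 41.8% of a library's reads were given to no single gene. All 8 fibroblast markers examined were at 1 CPM (counts per 1000000 gene counts) or more in every library. Of the epithelial, endothelial and immune markers, EPCAM, CDH1, KRT19, PECAM1, CDH5, PTPRC, CD3E and CD79A were under 1 CPM in every library. The epithelial markers KRT8 and KRT18 and the immune marker CD68 were above 1 CPM in every library, and VWF, KDR and CD14 in some. KRT18 ran from 17.7 CPM in ICM 1 to 194 CPM in ICM 3, and CD68 from 39.1 CPM in WT 1 to 104 CPM in ICM 4. Values of a pair of libraries are given with the lower replicate number first. The summed level of the fibroblast markers was 17742 and 24119 CPM in the WT pair, 11084 and 3937 CPM in the ICM 1-2 pair, and 4196 and 2034 CPM in the ICM 3-4 pair. The part of that shift in the results below was not tested, and in bulk RNA fewer cells of a type and less RNA per cell cannot be told apart. HMGB2 was at 3.18 and 3.52 CPM in siHMGB2 and 27.7 and 28.0 CPM in the WT pair. CTCF was at 71.5 and 23.0 CPM in siCTCF 1 and 2 and at 94.9 and 91.9 CPM in the ICM 3-4 pair. SRRM2 was at 238 and 112 CPM in the ICM 1-2 pair, at 76.1 and 76.4 CPM in siSRRM2, as labelled, and at 59.0 and 17.0 CPM in siBANF1. BANF1 was at 13.5 and 32.7 CPM in the ICM 1-2 pair, at 34.2 and 33.3 CPM in siSRRM2, and at 17.0 and 36.7 CPM in siBANF1, so it was not below the ICM range in the libraries labelled as its knockdown, and SRRM2 was lower there than in siSRRM2. The deposited files of these 2 groups also carry each other's name, so which knockdown each group holds is unsettled. These 4 libraries are therefore named by their labels only.

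In ICM 3-4 against WT, 4 of the 10 genes rose and none fell: the J-domain gene DNAJB1, the constitutive HSP70 gene HSPA8, the inducible HSP90 gene HSP90AA1 and the exchange factor HSPA4. With edgeR's quasi-likelihood test at an adjusted p under 0.05, 47.0% of all genes were called in this comparison, 23.5% higher and 23.5% lower, so 4 of 10 lies near the background. In the fit to all 14 libraries 2 of the 10 were called, DNAJB1 and HSP90AA1, and 30.3% of all genes. The CPM of ICM 3-4 and WT did not overlap for 8 of the 10, where 75.9% of all genes did not overlap. The median log2 fold change of the 10 genes was 0.52, against 0 over all genes. DNAJB1 changed most, by a log2 fold change of 1.71. Scaling by total counts raised the median over all genes to 0.18 and also called HSP90AB1 and HSPH1, with 48.0% of all genes called.

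**Figure D1:**
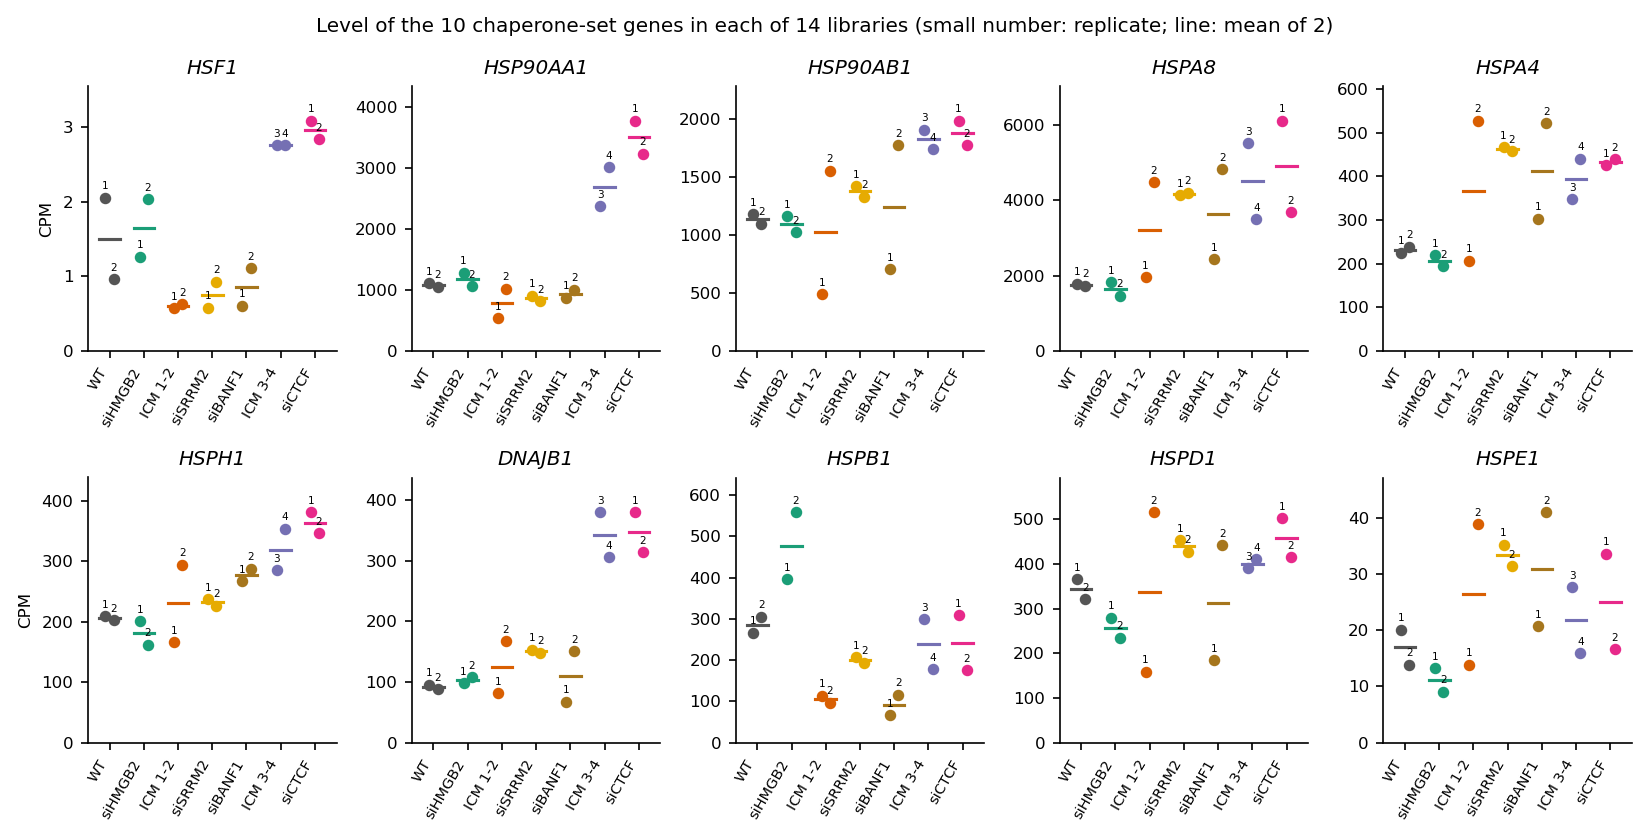
CPM (linear axis from 0) of each of the 10 genes in 14 libraries, with points for single libraries numbered by replicate and a line for the mean of 2. HSP90AA1 and DNAJB1 sit higher in ICM 3-4 and siCTCF than in every other library, while ICM 1 sits below ICM 2 for every gene except HSPB1.

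HSF1 itself was given few counts, 24 to 84 a library, and whether the mapping or counting lost reads of HSF1 was not tested. It was at 2.06 and 0.960 CPM in the WT pair, at 0.574 and 0.626 CPM in the ICM 1-2 pair, and at 2.76 CPM in both ICM 3 and ICM 4. The WT libraries differed 2.14-fold between themselves, ICM 1-2 lay below both and ICM 3-4 above both. Neither difference passed the test (log2 fold change -1.41, SE 0.66, adjusted p = 0.293 for ICM 1-2; 0.68, SE 0.44, adjusted p = 0.243 for ICM 3-4, edgeR). In the other groups HSF1 was at 1.27 and 2.04 CPM in siHMGB2, at 0.584 and 0.930 CPM in siSRRM2, at 0.609 and 1.12 CPM in siBANF1, and at 3.09 and 2.84 CPM in siCTCF. The other heat shock factors HSF2 and HSF4, the 2 of 3 listed that passed the filter, were called in no comparison.

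HSP90AA1 encodes the stress-inducible cytosolic HSP90 and HSP90AB1 its constitutive partner. HSP90AA1 was at 1111 and 1059 CPM in the WT pair, at 544 and 1026 CPM in the ICM 1-2 pair, and at 2372 and 3011 CPM in the ICM 3-4 pair. The ICM 3-4 libraries stood above both WT libraries and the ICM 1-2 libraries below them. HSP90AA1 rose 2.16-fold in ICM 3-4 (log2 fold change 1.11, SE 0.19, adjusted p = 0.00219, edgeR), and the value for ICM 1-2 was -0.58 (SE 0.42, adjusted p = 0.461). It was at 1284 and 1065 CPM in siHMGB2, at 911 and 816 CPM in siSRRM2, and at 878 and 1007 CPM in siBANF1. By mean level the order was siCTCF, ICM 3-4, siHMGB2, WT, siBANF1, siSRRM2, ICM 1-2, and neighbours in that order overlapped only between siHMGB2 and WT, siBANF1 and siSRRM2, and siSRRM2 and ICM 1-2. The place of siCTCF above ICM 3-4 is the difference that led to the list, so nothing is read from it.

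HSP90AB1 was at 1182 and 1098 CPM in the WT pair, at 490.4 and 1555 CPM in the ICM 1-2 pair, and at 1909 and 1740.0 CPM in the ICM 3-4 pair. ICM 1 and ICM 2 lay on opposite sides of WT, and both ICM 3-4 libraries lay above it. Its log2 fold change in ICM 3-4 was 0.49 (SE 0.18) and missed the threshold (adjusted p = 0.0579, edgeR). Without ICM 4, which leaves 1 library in that arm, the value was 0.59.

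Within a library, the ratio of HSP90AA1 to HSP90AB1 counts does not depend on library size. It was 0.940 and 0.965 in WT and 1.10 and 1.04 in siHMGB2. In ICM-treated cells of the first set it ran from 0.568 to 1.24, with ICM 1 (1.11) and siBANF1 1 (1.24) above 1 and ICM 2 (0.660), siBANF1 2 (0.568) and both siSRRM2 libraries (0.641 and 0.613) below. In the second set it was 1.24 and 1.73 in ICM 3 and 4 and 1.90 and 1.83 in siCTCF. ICM 4 and the siCTCF libraries thus held the 3 highest ratios of the 14, and ICM 3 was level with siBANF1 1. HSP90AA1 in siCTCF against ICM 3-4 led to the list, so nothing is read from the place of siCTCF above ICM 3-4. A ratio above or below WT shows unequal change of the 2 genes, not which of them changed.

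**Figure D2:**
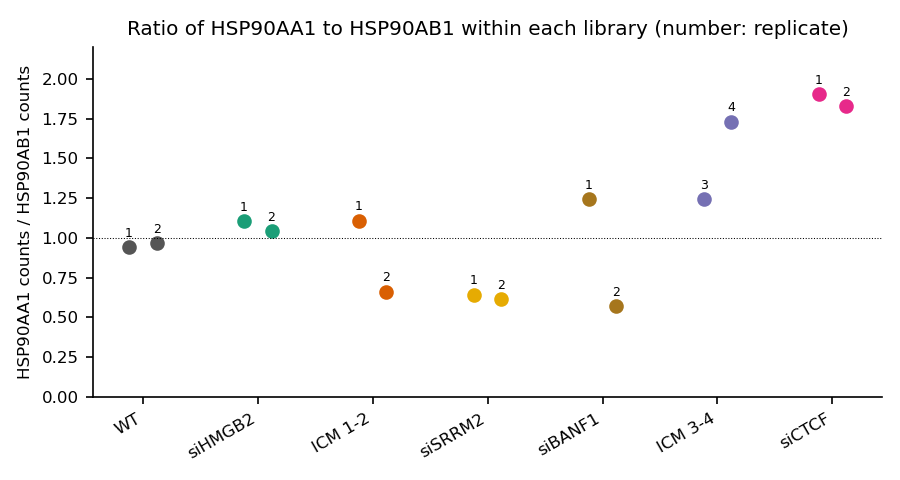
HSP90AA1 counts divided by HSP90AB1 counts (linear axis from 0) in each of 14 libraries by group, with points numbered by replicate. WT lies at 0.940 and 0.965, siSRRM2 at 0.641 and 0.613, and siCTCF at 1.90 and 1.83, and the dotted line marks equal counts.

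HSPA8 encodes the constitutive cytosolic HSP70 and was the most abundant of the 10 per kilobase of transcript, at a mean of 716 CPM per kilobase in WT, against 426 for HSP90AB1, 321 for HSP90AA1, 314 for HSPB1 and 140 for HSPD1. It was at 1794 and 1736 CPM in the WT pair, at 1959 and 4492 CPM in the ICM 1-2 pair, and at 5513 and 3496 CPM in the ICM 3-4 pair. All 4 ICM libraries lay above WT, with ICM 1 close to it. HSPA8 rose 2.24-fold in ICM 3-4 (log2 fold change 1.17, SE 0.26, adjusted p = 0.00750, edgeR), a call lost when all 14 libraries were fitted together (1.13, adjusted p = 0.0830). In ICM 1-2 the value was 0.74 (SE 0.51, adjusted p = 0.441). HSPA8 was also high with the ICM knockdowns of the first set, at 4144 and 4209.5 CPM in siSRRM2 and at 2449 and 4830.4 CPM in siBANF1, and was at 1838 and 1474 CPM in siHMGB2.

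HSPA4 and HSPH1 belong to the HSP110 family, which exchanges nucleotide on HSP70. HSPA4 was at 225 and 239 CPM in the WT pair, at 207 and 528 CPM in the ICM 1-2 pair, and at 348 and 440.3 CPM in the ICM 3-4 pair. HSPA4 rose 1.48-fold in ICM 3-4 (log2 fold change 0.56, SE 0.18, adjusted p = 0.0323, edgeR), and the call was lost without WT 1 (adjusted p = 0.261), without WT 2 (adjusted p = 0.214) and in the fit to all libraries (adjusted p = 0.283). HSPH1 was at 209 and 203 CPM in the WT pair, at 166 and 295 CPM in the ICM 1-2 pair, and at 285 and 355 CPM in the ICM 3-4 pair. Both ICM 3-4 libraries lay above WT for HSPH1, and the log2 fold change of 0.44 (SE 0.17) missed the threshold (adjusted p = 0.0727, edgeR). Without ICM 3, which leaves 1 library in that arm, the value was 0.48. The 2 genes parted in the first set: the ratio of HSPA4 to HSPH1 counts was 1.08 and 1.18 in WT, 1.79 in ICM 2, 1.96 and 2.02 in siSRRM2 and 1.81 in siBANF1 2, but 1.25 in ICM 1 and 1.14 in siBANF1 1. HSPA8 and HSPA4 parted in 1 library of each second-set group, with HSPA8 to HSPA4 count ratios of 15.9 in ICM 3 and 14.4 in siCTCF 1, against 7.25 to 9.46 in the other 12 libraries.

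DNAJB1, a J-domain partner that delivers substrates to HSP70, was at 95.6 and 87.9 CPM in the WT pair, at 81.5 and 167 CPM in the ICM 1-2 pair, and at 380.1 and 306 CPM in the ICM 3-4 pair. ICM 3-4 lay above every library of the first set. DNAJB1 rose 3.28-fold in ICM 3-4 (log2 fold change 1.71, SE 0.20, adjusted p = 0.000418, edgeR), and the value for ICM 1-2 was 0.32 (SE 0.37, adjusted p = 0.645). It was at 153 and 148 CPM in siSRRM2, 67.3 and 151 CPM in siBANF1, 98.3 and 108 CPM in siHMGB2, and 379.6 and 314 CPM in siCTCF. The siHMGB2 libraries lay just above WT, and that difference did not pass the test (0.23, SE 0.14, adjusted p = 0.374, edgeR).

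HSPB1 encodes HSP27, a small heat shock protein that holds unfolded proteins without ATP and binds actin filaments. It was at 266 and 305 CPM in the WT pair, at 397 and 559 CPM in siHMGB2, at 114 and 96.5 CPM in the ICM 1-2 pair, and at 299.8 and 179 CPM in the ICM 3-4 pair. The siHMGB2 libraries held the 2 highest values of the 14, and ICM 1-2 lay below WT. HSPB1 rose 1.75-fold in siHMGB2 against WT (log2 fold change 0.81, SE 0.16, adjusted p = 0.000165, edgeR). There 10.7% of all genes passed the test, 6.03% upward and 4.71% downward, beside 2 of the 10 members, HSPB1 upward and HSPE1 downward. The CPM of siHMGB2 and WT did not overlap for 6 of the 10, against 49.0% of all genes. Total-count scaling turned the split of all calls from 1154 higher and 901 lower to 939 higher and 1184 lower. The HSPB1 call was kept by every alternative tried, at adjusted p from 1.4e-07 to 0.0322, except the fit to all 14 libraries, which gave a like value (0.80, adjusted p = 1) and no call for any gene (edgeR, 908 genes at an unadjusted p under 0.05, 1760 genes called by DESeq2 on the compared libraries).

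In ICM 1-2 against WT the log2 fold change of HSPB1 was -1.51 (SE 0.34, adjusted p = 0.127, edgeR). The CPM of these groups did not overlap for 4 of the 10 genes and for 57.3% of all genes. None of the 10 genes was called there, where 0.173% of all genes were (33 genes at an adjusted p under 0.05, 4019 at an unadjusted p under 0.05, and 1902 called by DESeq2). HSPB1 was the 1 member called when all libraries were fitted together (-1.57, adjusted p = 0.0282, where 13.5% of all genes were called), by DESeq2 (-1.49, adjusted p = 0.0105) and with no filter on low counts (-1.47, adjusted p = 0.0149). Without ICM 1, 7 members were called, where 56.7% of all genes were, and without ICM 2, 4 members, where 44.5% of all genes were, with HSPB1 lower in both. HSPB1 in ICM 3-4 overlapped WT (-0.44, SE 0.27, adjusted p = 0.211, edgeR). Without ICM 3, which leaves 1 library in that arm, the value for HSPB1 was -0.98. In the ICM knockdowns it was at 208 and 193 CPM in siSRRM2, at 66.9 and 116 CPM in siBANF1, and at 309.5 and 175 CPM in siCTCF.

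HSPD1 (HSP60) and HSPE1 (HSP10) form the folding chamber of the mitochondrial matrix and its lid. Their annotated starts lie 105 bases apart on chromosome 2, facing opposite ways. HSPD1 was at 366 and 321 CPM in the WT pair, at 280.0 and 235 CPM in siHMGB2, at 159 and 517 CPM in the ICM 1-2 pair, and at 391 and 411 CPM in the ICM 3-4 pair. It passed the test in no comparison, with log2 fold changes of -0.35 (SE 0.15, adjusted p = 0.133) in siHMGB2 and 0.03 (SE 0.17, adjusted p = 0.920) in ICM 3-4, the latter turning below 0 under some alternatives (edgeR).

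HSPE1 was at 20.1 and 13.9 CPM in the WT pair, at 13.3 and 9.08 CPM in siHMGB2, at 13.9 and 38.9 CPM in the ICM 1-2 pair, and at 27.7 and 16.0 CPM in the ICM 3-4 pair. Both siHMGB2 libraries lay below both WT libraries by a narrow margin. HSPE1 fell by 0.55 on the log2 scale in siHMGB2 (SE 0.18, adjusted p = 0.0432, edgeR). The call was lost with DESeq2 (adjusted p = 0.139) and in the fit to all 14 libraries. In edgeR it was also lost with relative log expression scaling (adjusted p = 0.0534) and a mean of at least 10 CPM (0.0939). Leaving out small RNA genes (0.0664) or adding pseudogene counts (0.0555) lost it too. Total-count scaling (0.0170), no filter (0.0238) and a replicate block (0.0167) kept it. With 1 library left out, which leaves 1 in an arm, the value ran from -0.84 to -0.25. Per kilobase of transcript HSPE1 was at a mean of 17.9 CPM in the WT pair and HSPD1 at 140. HSPE1 lies inside the span of the readthrough gene HSPE1-MOB4, which had 0 counts in every library, so how the counting treated reads shared by the 2 genes bears on its level and was not tested. Between 1.00% and 4.10% of the reads on HSPE1 and its pseudogenes fell on pseudogenes in WT and siHMGB2, and 13.8% to 17.7% in ICM 3-4 and siCTCF. The share was nearly as high in ICM 1 (13.4%) and siBANF1 1 (13.2%), but 3.27% to 3.69% in ICM 2, siBANF1 2 and siSRRM2.

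**Figure D3:**
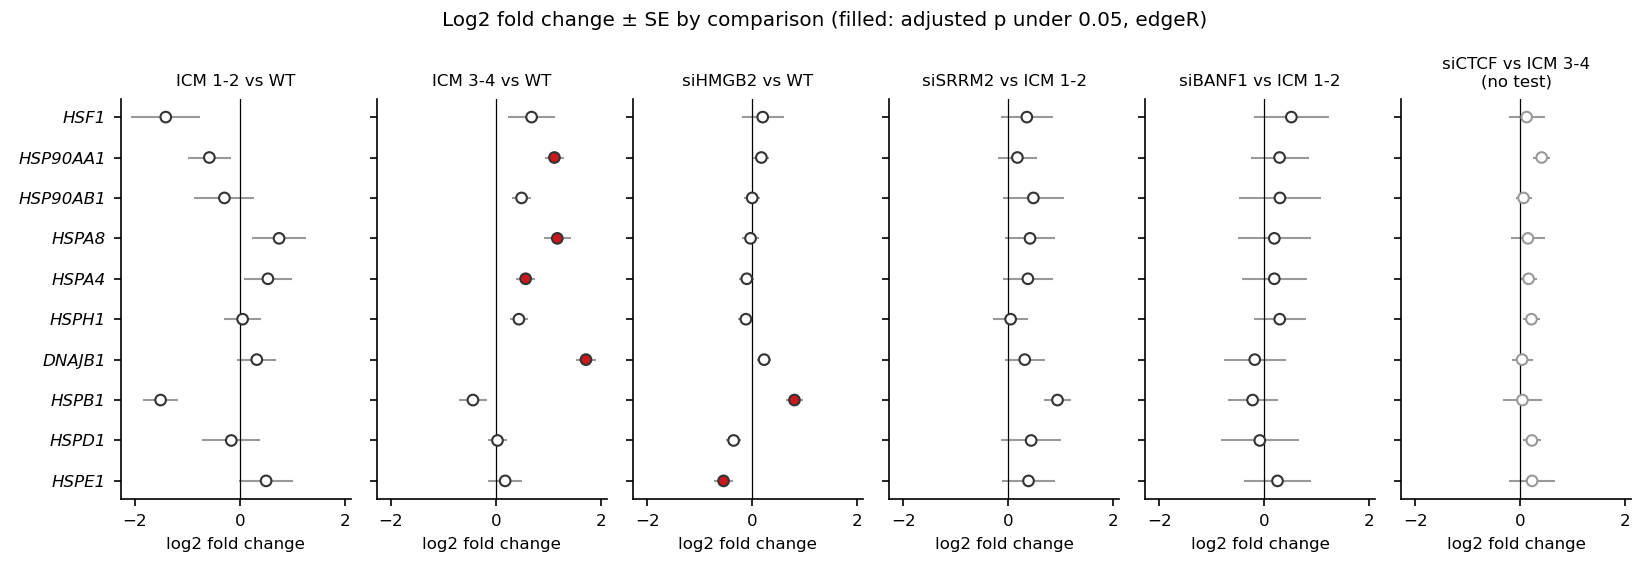
Log2 fold change with its SE for the 10 genes in 6 comparisons, with filled points for an adjusted p under 0.05 (edgeR) and grey points where no test was made. Nothing is read from the SE bars of the grey points, since that contrast led to the list. Filled points lie at 1.71, 1.17, 1.11 and 0.56 in ICM 3-4 against WT and at 0.81 and -0.55 in siHMGB2 against WT, and nowhere else.

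The 2 sets of ICM libraries were compared directly, which tests a difference in level between the sets. With no untreated library in the second set, it is no test of a difference between ICM effects. None of the 10 genes was called (edgeR), against 1.25% of all genes (239 genes, 4341 at an unadjusted p under 0.05, 2354 called by DESeq2). The largest values were 2.05 for HSF1 (SE 0.65, adjusted p = 0.132), 1.66 for HSP90AA1 (SE 0.50, adjusted p = 0.121) and 1.35 for DNAJB1 (SE 0.48, adjusted p = 0.160), and for all 3 the libraries of the sets did not overlap, as for 5 of the 10 members and 56.0% of all genes. All 3 were called in the fit to all 14 libraries, at adjusted p of 0.0184, 0.00567 and 0.0269, where 19.5% of all genes were called. DESeq2 called HSP90AA1 and HSF1. Without ICM 1, 4 of the genes were called beside 12.6% of all genes, and without ICM 2, 5 beside 36.5%.

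Libraries of 1 group differed widely within the first set. ICM 2 exceeded ICM 1 in 8 of the 9 chaperone genes, where it did so in 52.8% of all genes. The median CPM ratio was 2.29 (lowest 0.845 for HSPB1, highest 3.25 for HSPD1), against 1.07 over all genes. HSP90AB1, HSPA8, HSPA4, DNAJB1, HSPD1 and HSPE1 were above 2-fold, as were 21.4% of all genes. siBANF1 2 exceeded siBANF1 1 in all 9 and in 54.4% of all genes, with a median of 1.97 against 1.10 over all genes. The siSRRM2 libraries differed by ratios of 0.892 to 1.02 only. Beside this, reads given to no single gene made up 35.2% in ICM 1 and 41.8% in siBANF1 1, against 26.5% in ICM 2 and 28.4% in siBANF1 2, and small structural RNA genes held 6.20% of gene counts in ICM 1 and 3.28% in ICM 2, against 0.0105% and 0.0111% in WT. Their part in the chaperone levels was not tested.

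Knockdown of SRRM2 or BANF1, as labelled, was compared with ICM 1-2, so both comparisons share these libraries with each other and with ICM 1-2 against WT. No gene of the 19126 was called in either by edgeR, so the share called was 0% in both. In siSRRM2 1459 genes had an unadjusted p under 0.05 and DESeq2 called 204, and in siBANF1 34 genes had one and DESeq2 called 0. HSPB1 was the 1 member whose libraries did not overlap between siSRRM2 and ICM 1-2, against 41.5% of all genes, with a log2 fold change of 0.94 (SE 0.27, adjusted p = 0.641). All 10 members had log2 fold changes above 0 in siSRRM2 (median 0.38, all genes -0.08), and these values turn on 1 control library. Without ICM 1, 8 of the 10 lay below 0 and 5 were called, where 52.5% of all genes were. Without ICM 2, 9 were called, all higher, where 62.9% of all genes were called and 32.2% were called higher. In siBANF1 the values ran from -0.22 for HSPB1 to 0.51 for HSF1, all with overlapping libraries, against 14.5% of all genes without overlap. Same-numbered siBANF1 and ICM 1-2 libraries deviated alike (correlation 0.850), so overlap and the unpaired test there also hold the difference between replicates 1 and 2. With a replicate block edgeR called 1 gene of all, with 1501 at an unadjusted p under 0.05.

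In siCTCF against ICM 3-4, the contrast that led to the list, HSP90AA1 was at 3779.6 and 3236 CPM in siCTCF 1 and 2 and at 2372 and 3011 CPM in the ICM 3-4 pair. Both siCTCF libraries lay above both ICM libraries. The log2 fold change was 0.40, given as a description only. Set side by side, siCTCF 1 was 1.59 times ICM 3 and siCTCF 2 was 1.07 times ICM 4, although CTCF itself was lower in siCTCF 2. The other 9 genes had values from 0.03 for DNAJB1 to 0.22 for HSPE1, and the median of the 10 was 0.15 against 0 over all genes. These values turn on single libraries: without siCTCF 1, HSPA8 was at -0.33, HSPB1 at -0.49, HSPE1 at -0.44, DNAJB1 at -0.17 and HSP90AB1 at -0.08. With each library left out in turn, HSP90AA1 ran from 0.23 to 0.55, and since its values here led to the list, that range is no support. HSF1 and HSPD1 were the other members whose libraries did not overlap. Over all genes 17.1% did not overlap, and since this contrast chose the list, nothing is read from the count. HSPA8 (6119 and 3695 CPM in siCTCF, 5513 and 3496 CPM in ICM 3-4), HSPB1 (309.5 and 175, 299.8 and 179) and HSPE1 (33.6 and 16.6, 27.7 and 16.0) differed more between replicates than between groups. With no pairing, edgeR called none over all genes, with 31 genes at an unadjusted p under 0.05, and DESeq2 called 0. With ICM 3 paired with siCTCF 1 and ICM 4 with siCTCF 2, edgeR called 4. In that fit 762 genes had an unadjusted p under 0.05. No label gives this pairing, and the 31 genes describe the unpaired fit only.

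Of 66 other chaperone and cochaperone genes in 8 lists, 61 passed the filter. In ICM 3-4 against WT, 36 rose, 4 fell and 21 did not pass the test, with a median log2 fold change of 0.59, where 23.5% of all genes were called higher. HSP90 cochaperones had 10 of 15 higher and 1 lower, nucleotide exchange factors 5 of 7 higher and 1 lower, other mitochondrial chaperones 6 of 7 higher, subunits of the cytosolic chaperonin TRiC 5 of 8 higher, other J-domain genes 5 of 10 higher and 1 lower, other HSP70 genes 3 of 6 higher and 1 lower, and other small heat shock genes 2 of 6 higher. Single genes were ranked only where the test called them, their CPM averaged 10 or more and the arms did not overlap. Without these limits, log2 fold changes of the HSP90 cochaperones ran from -1.56 to 8.14. Among the genes ranked, HSPB8 rose most (log2 fold change 3.49, SE 0.20, adjusted p = 4.0e-05, edgeR). It is a small heat shock protein that works with BAG3 in autophagy. Next were FKBP4 (2.28, SE 0.18), an immunophilin that binds HSP90, and CLPB (1.99, SE 0.19), a mitochondrial disaggregase. HSPB8 was at 12.6 and 12.1 CPM in the WT pair and 140.0 and 179.8 CPM in the ICM 3-4 pair, and 13.4 and 74.8 CPM in the ICM 1-2 pair. FKBP4 was at 89.7 and 77.4 CPM in the WT pair and 447 and 484 CPM in the ICM 3-4 pair. HSPA2, an HSP70 best known from the testis, fell by 2.94 on the log2 scale, from 49.5 and 65.1 CPM in the WT pair to 8.16 and 8.99 CPM. DNAJB5 and BAG2 followed among the genes ranked, with falls of 1.31 and 0.98.

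HSPA1A and HSPA1B, both stress-induced HSP70 genes, have near-identical coding sequences, and reads that fit both may be given to neither. HSPA1A was at 0.0418 CPM in ICM 3 and had no counts in the other libraries, and HSPA1B was at 5.27 and 5.21 CPM in the WT pair, 1.00 and 2.27 CPM in the ICM 1-2 pair, and 17.9 and 11.9 CPM in the ICM 3-4 pair. HSPA6, of the same list, did not follow HSPA1B. It was at 1.58 and 0.933 CPM in the WT pair and 0.307 and 3.78 CPM in the ICM 1-2 pair. In the ICM 3-4 pair it was at 2.05 and 1.14 CPM, overlapping WT, and it was highest in siBANF1 2, at 6.59 CPM. In siHMGB2 against WT, 2 of the 61 rose and 2 fell, where 6.03% of all genes were called higher and 4.71% lower. CRYAB (log2 fold change 0.93, SE 0.18) and HSPB6 (0.59, SE 0.16) rose, 2 of the 6 other small heat shock genes, and the other 4 did not pass the test, while HSPA4L fell by 1.19 and BAG1 by 0.46, both exchange factors of HSP70. In ICM 3-4 against ICM 1-2, HSPB6 was the 1 gene of the 61 called, beside 1.25% of all genes, higher by 4.20 (SE 0.71, adjusted p = 0.0451, edgeR). That call was lost without small RNA genes (adjusted p = 0.0671) and with a mean of at least 10 CPM (adjusted p = 0.0886). None of the 61 was called in ICM 1-2 against WT, siSRRM2 or siBANF1.

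**Figure D4:**
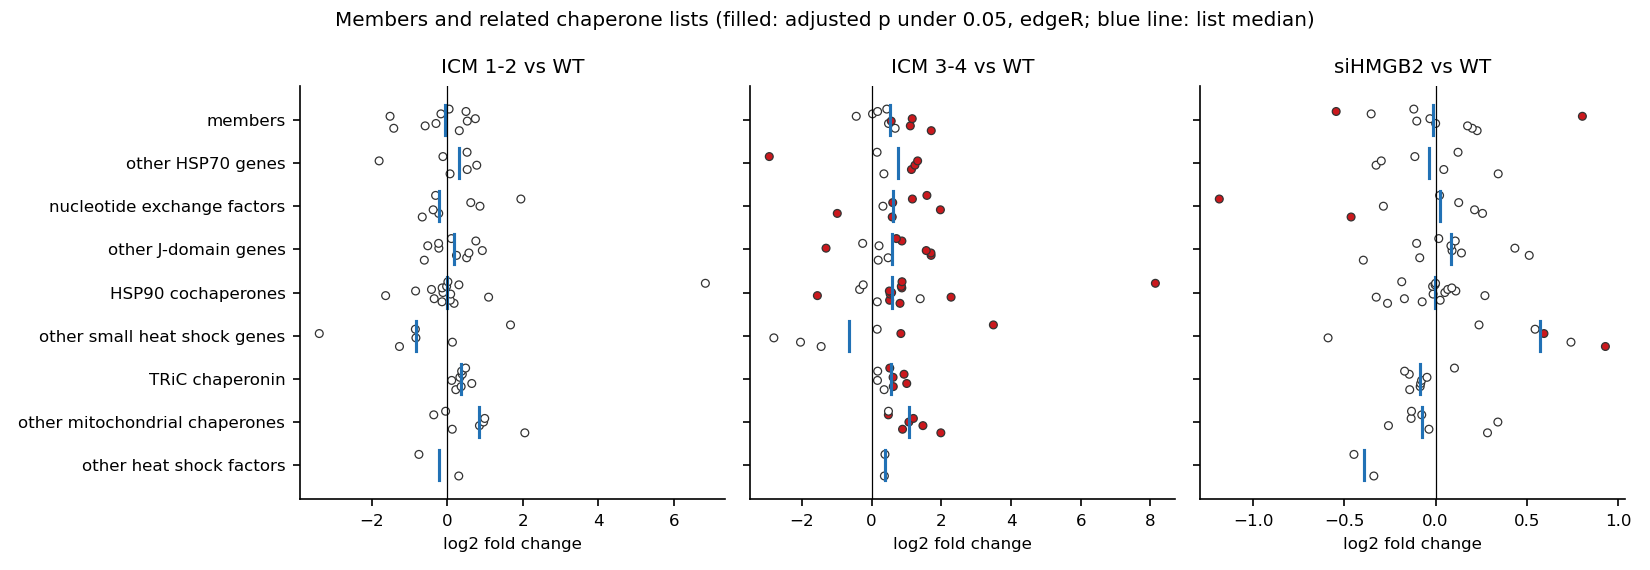
Log2 fold changes of single genes in the member list and 8 related chaperone lists for 3 comparisons with WT, with filled points for an adjusted p under 0.05 (edgeR), a blue line for the list median and a separate linear axis per panel. In ICM 3-4 most filled points lie above 0, with HSPA2 lowest at -2.94, and in ICM 1-2 no point is filled.

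Over the 14 libraries, the genes whose log2(CPM + 1) followed HSP90AA1 most closely were PRCC (r = 0.977), NXF1, BRD2, ISG20L2 and SLC35A4 (r = 0.973). For the mean of the 10 genes they were CTNNBL1 (r = 0.988), the HSP90 and HSP70 adaptor STIP1 (r = 0.984), PUS1, TMEM11 and PSMD13. That mean joins unlike patterns, since the chaperone members followed HSP90AA1 unequally, from r = 0.855 for DNAJB1 to 0.0418 for HSPE1. PRCC was at 58.5 and 56.9 CPM in the WT pair, 20.2 and 48.0 CPM in the ICM 1-2 pair, and 154 and 165 CPM in the ICM 3-4 pair. The points share library depth and the division into 2 sets, and no p-value is given.

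Processed pseudogenes of these genes carry near-copies of their sequence. The files list 84 of them for 7 of the 10 genes, of which 28 had no counts in any library and 11 reached 100 counts. The share of reads on pseudogenes was lowest in WT and siHMGB2 for HSPA8, HSP90AA1 and HSPD1, and differed between libraries of 1 group in the first set. For HSPA8 it was 0.0569% to 0.0681% in WT, 0.444% to 0.631% in ICM 1-2 and 1.41% to 1.43% in ICM 3-4. For HSP90AA1 it was 0.0906% to 0.110% in WT and 0.903% to 0.929% in ICM 3-4, with 0.629% and 0.440% in ICM 1 and 2. For HSPD1 it was 0.317% to 0.341% in WT, 3.32% in ICM 1 but 0.810% in ICM 2, and 3.92% to 4.23% in ICM 3-4. HSPA8P8 had 14 and 7 counts in WT and 766 and 511 in ICM 3 and 4. The shares were small beside the changes of HSPA8 and HSP90AA1, and adding the pseudogene counts left the same 4 genes called in ICM 3-4.

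**Figure D5:**
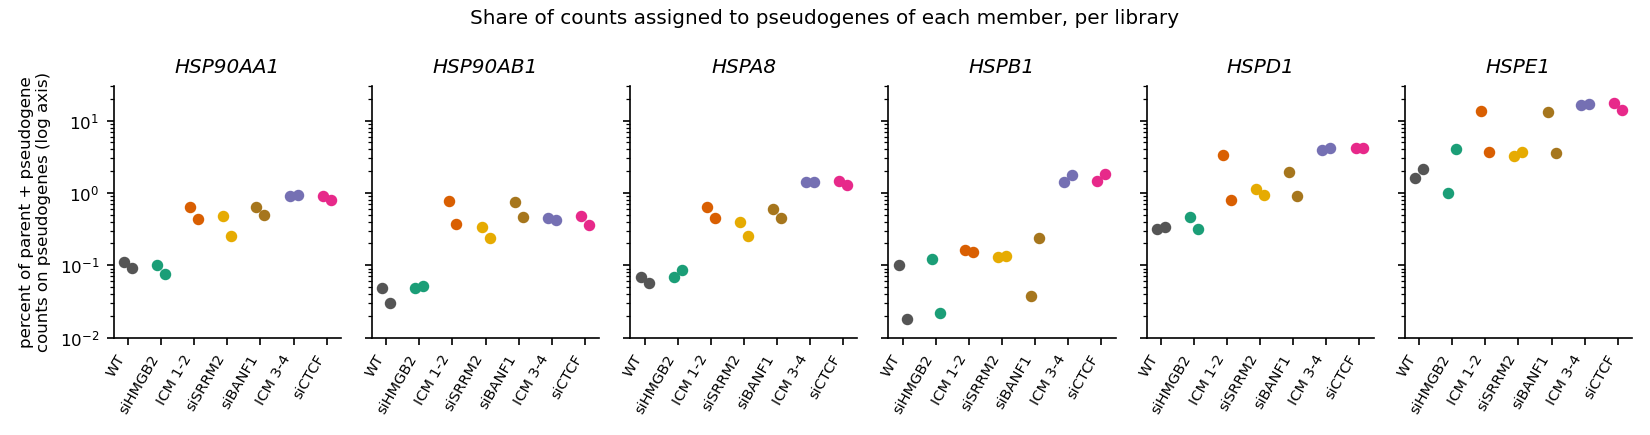
Percent of the counts on a gene and its pseudogenes that fell on the pseudogenes (log axis), for 6 genes, with 1 point per library by group. For HSPA8, WT lies at 0.0569% and 0.0681% and ICM 3-4 at 1.41% and 1.43%.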

How the data were processed

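For each of the 14 libraries the authors deposited raw counts by gene symbol, as whole numbers, with replicates kept apart. The submitters' processing notes name STAR 2.7.3a, HTSeq 0.12.4, DESeq2 1.36.0 and hg38. The annotation release and the strand setting are not given in the sources used here, so reads of overlapping genes and near-copies may have been divided or dropped. The 5 lines for reads given to no gene (12.8% to 41.8% of a library) entered neither the library sizes nor the tests.

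Genes were kept by filterByExpr over the 7 cells of the design (6 groups, ICM divided by set). After TMM scaling, edgeR 4.0.16 in R 4.3.3 was used for its quasi-likelihood test, on the libraries compared only, because earlier results showed unequal spread between groups. P-values were adjusted (Benjamini-Hochberg) over the 19126 genes, and the threshold was 0.05. With 2 libraries per arm the number of replicates limits the precision. Tested on simulated data, the fit called few or none of the changed genes in the comparisons that use ICM 1-2, so an absent call there does not show that a gene did not change. CPM uses unscaled totals, and CPM per kilobase uses the longest principal transcript of GENCODE release 29. Groups were read from the titles.

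The members, lists and tests were chosen with earlier results of these data known. The text names the 10 members, the targeted genes, the 3 highest and 3 lowest called related genes per comparison with a mean of at least 10 CPM and no overlap between arms, pseudogenes with at least 100 counts, and the 5 genes most correlated with HSP90AA1 and with the mean of the members. HSPA1A, HSPA1B, HSPA6, HSF2 and HSF4 were named after their values were seen. Epithelial, endothelial and immune markers were also examined: in the order WT, ICM 1-2 and ICM 3-4, epithelial markers summed to 54.6 to 58.4, 33.8 to 153.8 and 190.7 to 212 CPM, endothelial markers to 7.27 to 7.36, 0.368 to 2.62 and 0.0788 to 0.878 CPM, and immune markers to 40.0 to 40.5, 59.5 to 96.0 and 96.6 to 105.8 CPM. Alternatives were relative log expression or total-count scaling, no filter, a mean of at least 10 CPM, leaving out small RNA genes (3521 symbols of small nuclear, nucleolar, 7SK, SRP, Y and similar RNAs and their copies, a definition narrowed after the shares of counts had been seen from 5492 symbols that also held ribosomal, micro and miscellaneous RNAs), DESeq2 1.42.0, a fit to all 14 libraries, adding pseudogene counts, a replicate block and leaving out each library.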

Additional observations from a re-analysis of the deposited data

How the results depend on the processing

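With 2 libraries per arm, most values that changed did so with single libraries. The 4 calls in ICM 3-4 against WT fell to 2 in the fit to all 14 libraries, DNAJB1 and HSP90AA1, and ran from 3 to 6 when a library was left out. The number of genes called there was 4997 with a mean of at least 10 CPM (fewer genes tested), 5797 in the fit to all libraries, and 5439 to 10880 when a library was left out. The log2 fold change of HSPD1 in this comparison was -0.0101 with no filter, -0.0127 at 10 CPM, -0.0182 in the fit to all libraries and -0.0749 to 0.1367 when a library was left out, and that of HSPE1 -0.3993 to 0.5507.

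In ICM 1-2 against WT, 33 genes were called, against 89 with total-count scaling, 2658 with no filter, 0 at 10 CPM and 0 without small RNA genes (edgeR, 1582 and 3842 at an unadjusted p under 0.05), 1902 by DESeq2, 2582 in the fit to all libraries and 89 to 10843 when a library was left out. The members called were 1 with no filter, by DESeq2 and in the fit to all libraries, and 0 to 7 when a library was left out. Leaving out a library gave log2 fold changes of -1.173 to 0.2514 for HSP90AB1, -1.0697 to 0.3925 for HSPD1, -0.1274 to 0.6717 for DNAJB1, -0.1212 to 0.9878 for HSPA4, -0.2523 to 0.9977 for HSPE1 and -0.2651 to 0.3203 for HSPH1.

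In ICM 3-4 against ICM 1-2, 239 genes were called, against 523 with total-count scaling, 2809 with no filter, 49 at 10 CPM, 3 without small RNA genes, 2354 by DESeq2, 3738 in the fit to all libraries and 370 to 6982 when a library was left out. The members called were 1 with no filter, 2 by DESeq2, 3 in the fit to all libraries and 0 to 5 when a library was left out. HSPA4 was at 0.1005 with total-count scaling, 0.012 at 10 CPM, 0.0192 in the fit to all libraries and -0.4573 to 0.6835 when a library was left out, HSPA8 at -0.0227 to 0.9709, HSPD1 at -0.399 to 1.0962 and HSPE1 at -0.86 to 0.4269.

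In siHMGB2 against WT, 2 members were called, against 1 with relative log expression scaling, at 10 CPM, without small RNA genes, by DESeq2 and with pseudogene counts added, 0 in the fit to all libraries (0 genes in all, edgeR, 908 at an unadjusted p under 0.05) and 1 to 3 when a library was left out, which gave 771 to 2645 genes. HSP90AB1, at 0.0005, was at -0.0026 with relative log expression scaling and with DESeq2, -0.0606 with total counts, -0.0064 with no filter, -0.0012 at 10 CPM, -0.0004 without small RNA genes (-0.0006 by their wider definition), -0.0075 in the fit to all libraries, -0.0001 with pseudogene counts and -0.0879 to 0.0837 when a library was left out. HSF1 ran from -0.2493 to 0.8505, HSPA8 from -0.1909 to 0.113 and HSPH1 from -0.2747 to 0.0212.

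In siSRRM2 against ICM 1-2, 0 genes were called by edgeR (1459 at an unadjusted p under 0.05), against 204 by DESeq2, 34 in the fit to all libraries and 0 to 12025 when a library was left out, with 0 to 9 members. Leaving out a library gave -0.082 to 0.834 for DNAJB1, -0.178 to 0.6147 for HSP90AA1, -0.1059 to 1.4353 for HSP90AB1, -0.123 to 1.103 for HSPA4, -0.0347 to 1.0394 for HSPA8, -0.1587 to 1.4204 for HSPD1, -0.152 to 1.2148 for HSPE1, -0.2731 to 0.4292 for HSPH1 and -0.0504 to 0.6564 for HSF1. In siBANF1 against ICM 1-2, 7 genes were called with no filter and 0 to 10 when a library was left out, which gave -0.0535 to 0.7166 for HSP90AA1, -0.4191 to 1.2365 for HSP90AB1, -0.3006 to 0.9027 for HSPA4, -0.2954 to 0.7993 for HSPA8, -0.2809 to 1.0632 for HSPE1, -0.0164 to 0.6632 for HSPH1, -0.7885 to 0.3223 for DNAJB1, -0.7617 to 0.8806 for HSPD1 and -0.5915 to 0.0879 for HSPB1.

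Groups share replicate numbers, but no label says that a number pairs libraries. The deviations of same-numbered libraries correlated at -0.167 for ICM 1-2 with WT, 0.167 for siHMGB2 with WT, 0.0371 for siSRRM2 and 0.850 for siBANF1 with ICM 1-2. With a replicate block, the genes called were 1445 in ICM 1-2 against WT (1540 with the crossed pairing, added after the data were seen), 103 in siSRRM2 and 1 in siBANF1, and 4 in siCTCF with ICM 3 paired with siCTCF 1 and ICM 4 with siCTCF 2. The block moved HSP90AB1 in siHMGB2 to -0.0007 and HSPD1 in siBANF1 to 0.001. Where an arm was left with 1 library, that library is assumed to vary like the others in the fit. The definition of small RNA genes was narrowed after the data were seen. The wider one first used gave the same counts of calls among the members in all 6 tested comparisons, and 0 genes in ICM 1-2 against WT (edgeR, 3809 at an unadjusted p under 0.05) and 3 in ICM 3-4 against ICM 1-2. The cause of these changes was not tested. HSF1, with 24 to 84 counts a library, is limited by these low counts. They did not follow library size, with 69 in siCTCF 1 (22336161 gene counts) and 34 in ICM 2 (54277501 gene counts).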

Other observations

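Of the 11 pseudogenes with at least 100 counts in a library, HSPD1P11 was the 1 with fewer counts in both ICM 3-4 libraries than in both WT libraries, and the other 10 had more. It had 8 and 16 counts in WT, 182 and 31 in ICM 1 and 2, 96 and 99 in siSRRM2, 73 and 43 in siBANF1, and 0, 1, 0 and 2 in ICM 3, ICM 4, siCTCF 1 and siCTCF 2. HSP90AA3P had 1 count in each WT library, 22 and 33 in ICM 1 and 2, and 197 and 293 in ICM 3 and 4, while HSPB1P1 had 5 and 2 in WT, 8 and 3 in ICM 1 and 2, and 94 and 74 in ICM 3 and 4. These are raw counts from libraries of different size, and how they arise was not tested.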
